A study of Papio anubis with 40 samples.

Results

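The 43 fragments described here are serum tRNA reads that end in the bases CCA and do not carry the 3' end of Asp-GTC, the tRNA whose 3' pieces dominate reads of this kind in these libraries. They were chosen from 58587 fragments with an ID as those whose read ends in CCA, whose last 16 bases differ at 2 or more places from the Asp-GTC end, whose code does not open like one of 8 abundant 5' families, and whose counts over the 40 libraries sum to 100 or more. Together they held 16496 counts, 0.0126% of the 130892201 counts in the table, and they fell into 22 groups by their last 16 bases. The 3 members nearest the threshold had totals of 100, 105 and 106, and the 3 fragments nearest below it had 97, 94 and 92. A further 3012 fragments met every other condition with a lower total and held 13885 counts between them, while 1820 fragments with the Asp-GTC end held 66072. The total was part of the rule, so the abundance of the members is a description.

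Serum was drawn from 8 olive baboons (Papio anubis) before the procedure (month 0) and at months 3, 6, 9 and 15 after it. Menstrual tissue was placed into the abdominal cavity at laparoscopy, which induces endometriosis in this species. All 8 animals were inoculated and the labels record no drug treatment for any of them, so a difference between months cannot be told apart from age or from anything else that changed between draws. Each library came from 0.5 mL of serum and held between 198840 counts (PA8001, month 0) and 6245450 counts (PA8914, month 9). Levels are given as CPM, read counts divided by the library total on a common scale after TMM scaling, which multiplies each total by a factor that ran from 0.458 (PA8003, month 15) to 1.93 (PA8001, month 0). A read absent from a library could still have been there at up to 3 counts, which is worth 0.568 CPM in the deepest library and 7.82 CPM in the shallowest. In serum, fewer cells shedding a fragment and less of it per cell cannot be told apart.

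A transfer RNA brings an amino acid to the ribosome, and the amino acid is attached to the last base of a CCA triplet that an enzyme adds to the 3' end after transcription. Next to that triplet stand the discriminator base and the 3' strand of the acceptor stem, which pairs with the first bases of the molecule, and further in lies the T arm, whose loop carries the letters TTCNA. Pieces that run from the T loop to the CCA are known as 3' tRNA fragments, and some of them have been found bound to Argonaute proteins. Mitochondria have their own set of tRNAs, which receive the CCA in the same way.

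The leading reads show the features that place them. In the first 9 lines the capitals mark the 7 bases of the acceptor stem, followed by the discriminator base and the CCA. The 4 Gly-CCC reads are shown because they share one end and differ only in where they begin. The other 5 are shown because their ends differ.
Gly-CCC, tRF-16-K8QJP1B: cccggGCGGCGCacca
Gly-CCC, tRF-17-8S68L52: tcccggGCGGCGCacca
Gly-CCC, tRF-18-YRRHQFD2: ttcccggGCGGCGCacca
Gly-CCC, tRF-22-WE8S68L52: tcgattcccggGCGGCGCacca
Pro, tRF-22-8B8SOUPR2: tcaaatcccggACGAGCCccca
Ala first end, tRF-18-8R6Q46D2: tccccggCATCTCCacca
Val-AAC/CAC, tRF-22-WB08Q2B52: tcgaaaccgggCGGAAACacca
Ser-GCT, tRF-22-WB8689SV2: tcgaatcccatCCTCGTCgcca
Val-TAC, tRF-22-W0K672052: tcgagccccagTGGAACCacca
In the next 6 lines the capitals mark the final CCA. The mitochondrial pair is shown because these ends belong to the mitochondrial set, and the last 4 because their CCA lies inside a tRNA.
mitochondrial Cys, tRF-16-WVMKNRB: tctgccggggcttCCA
mitochondrial Gly, tRF-26-ZDDQ8BB2S1B: ttgacaatattcaaaaaagagtaCCA
Val-TAC, 3 bases short, tRF-36-LPD3387SFRJ4O1B: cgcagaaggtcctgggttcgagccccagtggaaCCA
mitochondrial Met 5' piece, tRF-32-1OR6QO004MR12: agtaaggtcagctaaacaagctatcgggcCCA
Lys 5' piece, tRF-29-PS5P4PW3FJE2: gcccggatagctcagtcggtagagcaCCA
initiator Met inner piece, tRF-19-MBQ4NK12: cggaagcgtgctgggcCCA
The first number in a fragment's name is its length in nucleotides (nt).

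The label of a 3' CCA end held for most of the members and not for all. If the final CCA is that of a mature tRNA, no read should carry the same 16 bases and go on past them. That was so for 18 of the 22 ends, with 37 members and 13330 counts, for which 0 longer reads were found. For the other 4 ends, with 6 members and 3166 counts (19.2% of the members' counts), the bases went on. The most abundant member of all, tRF-36-LPD3387SFRJ4O1B with 1834 counts, was one of these: its last 16 bases continued in 159 fragments with 3917 counts. Compared with the Val-TAC read above, it stops where the acceptor stem and discriminator base of Val-TAC spell CCA, so it is a Val-TAC 3' piece without the added triplet. The mitochondrial methionine piece continued in 93 fragments with 16280 counts, the lysine piece in 34 with 19890 counts, and the initiator methionine pieces in 274 with 1946 counts.

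The remaining 37 members divided into 29 reads at 13 cytosolic ends (9880 counts, 59.9%), 4 reads at 3 mitochondrial ends (2308 counts, 14.0%), and 4 reads at 2 further mitochondrial ends that were almost confined to 2 libraries (1142 counts, 6.92%). The names of parent tRNAs were checked against the anticodon expected for each in longer reads with the same end, where there were any. For Gly-CCC 89 of 89 counts long enough showed the anticodon CCC, for Lys-CTT 203 of 205 showed CTT, for Val-TAC 33 of 34 showed TAC, for Gly-GCC 26 of 26 showed GCC, for Arg-TCT 8 of 8 showed TCT and for Trp 7 of 7 showed CCA. At the valine end named for AAC and CAC the only anticodon recorded was CAC, in 16 of 31 counts. The other counts there do not stand for AAC. The check of the proline end rested on 2 counts and that of the first alanine end on 1. The serine, leucine and mitochondrial names, that of the second alanine end and those of the lysine and initiator methionine pieces come from general knowledge of these sequences, since no tRNA reference was used here.

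Within the 13 cytosolic ends the reads began at a few fixed places. Of the 29 members, 10 were 18 nt long, 7 were 22 nt, 6 were 16 nt, 5 were 17 nt and 1, a leucine read, was 38 nt. In standard tRNA numbering 18 nt reads begin at position 59 and 22 nt reads at position 55, inside the T loop. All 7 members of 22 nt open with TCNA, the T-loop letters after the first T. All 13 ends have C at position 61, where the 16 nt reads begin, and 16 nt is also the shortest read in the table, so shorter pieces are not seen. The base before CCA was A in 8 ends, G in 4 and C in the proline end alone. Where reads of 23 nt or longer reach the T loop, TTCNA began 23 bases before the end in 1920 of 2028 counts.

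The short lengths set these ends beside the Asp-GTC end, whose reads are longer. Counting every read with one of the 13 ends, whatever its total, reads of 16 to 22 nt made up 85.3% of 13795 counts. At the Asp-GTC end they made up 1.27% of 66072 counts, and 87.9% there were 26 to 45 nt long. The share of 16 to 22 nt was larger for the 13 ends than for Asp-GTC in 40 of 40 libraries. It ran from 56.8% (PA8003, month 9) to 100% (PA8001, month 0) with a median of 86.1%, against 0% to 4.36% for Asp-GTC, so the ranges of the libraries did not overlap. Reads of exactly 18 nt took 28.6% and reads of 22 nt 27.8% of the counts at the 13 ends.

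**Figure D1:**
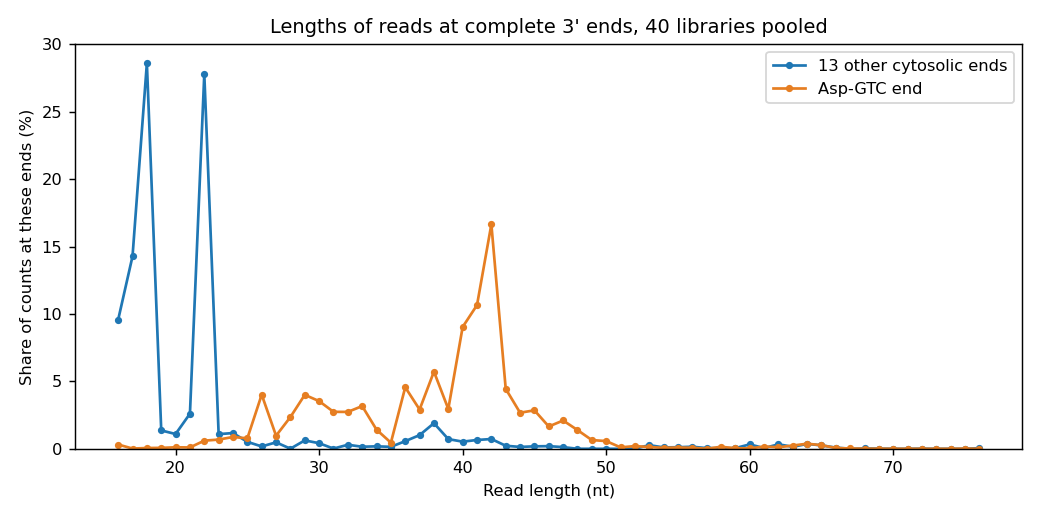
Share of counts (percent, vertical axis) by read length in nt (horizontal axis) for reads that carry one of the 13 other cytosolic 3' ends and for reads that carry the Asp-GTC end, over 40 libraries pooled. The 13 ends peak at 18 and 22 nt, with 28.6% and 27.8% of their counts, where Asp-GTC holds 0.0575% and 0.602%.

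The members by definition carry a whole CCA, but the same ends were also read with 1, 2 or all 3 of these bases missing. The share that kept all 3 differed widely between tRNAs. The table holds no read under 16 nt, so a 16 nt read can be seen only with its CCA whole. A 17 nt read can be seen with at most 1 of these bases missing. The shares therefore also depend on where the reads of each tRNA begin. It was highest for Lys-CTT, a lysine tRNA, at 85.0% of 533 counts, followed by the first alanine end at 75.7% of 1034 and Ser-TGA at 75.4% of 236. In the middle stood the second alanine end at 64.2%, leucine at 66.6%, tryptophan at 59.8%, Gly-CCC at 56.7%, Ser-GCT at 50.8% and Arg-TCT at 49.6%. Val-AAC/CAC kept the triplet in 46.1% of 3002 counts, proline in 39.3% of 7340 and Gly-GCC in 28.9% of 1576. Val-TAC was lowest, at 9.29% of 6363 counts: 3239 counts ended after a single added C and 2425 ended at the discriminator base, the latter including the 36 nt read shown above.

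The kind of shortening differed as well, within the same limit of length. Val-AAC/CAC reads most often lacked only the final A (1081 counts, against 174 that lacked 2 bases and 363 that lacked 3). Proline and Gly-GCC reads most often lacked all 3 (2803 and 717 counts). Pooled over the 13 ends, the complete triplet made up 39.6% ± 13.8 (SD, n = 8) of counts at month 0 and 50.9% ± 8.92 at month 15. It was higher at month 15 in 6 of 8 animals, and the ranges overlapped (14.8% to 62.2% against 42.3% to 69.7%); at months 3, 6 and 9 the means lay between 38.01% and 39.9%. These shares carry the same limit of length, are descriptions and were not tested.

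**Figure D2:**
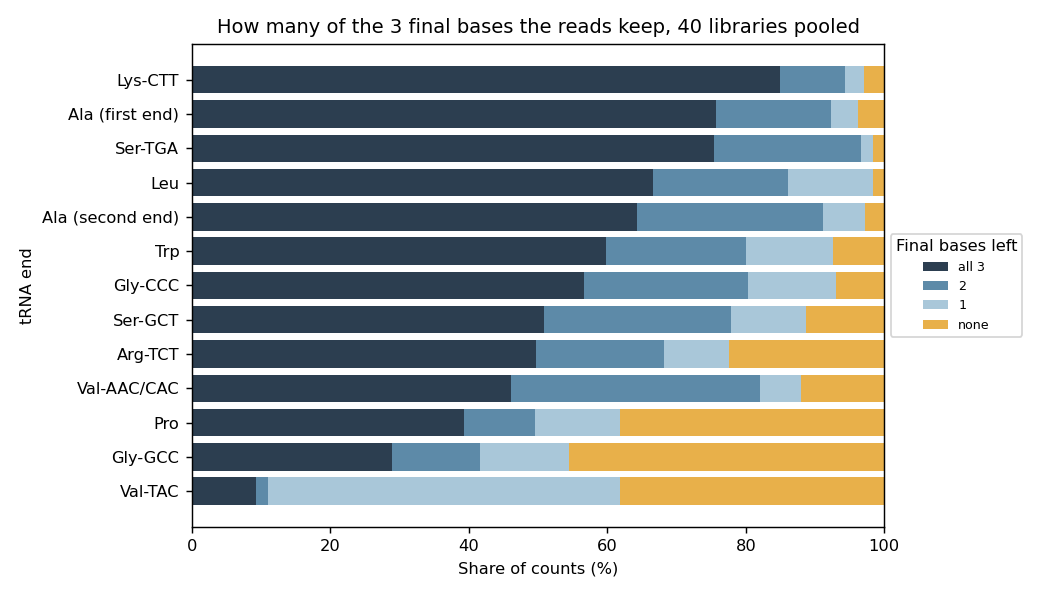
Share of counts (percent, horizontal axis) that keep all 3, 2, 1 or none of the final bases, for each of the 13 cytosolic ends (vertical axis), over 40 libraries pooled. Lys-CTT keeps all 3 in 85.0% of its counts and Val-TAC in 9.29%. The table holds no read under 16 nt, so the shortest reads are seen only with all 3.

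The same tRNAs were also read from their other end, and the balance of both ends differed by tRNA far more than the 3' counts did. The 5' reads were found as those whose first 7 bases pair with the acceptor bases above, by Watson-Crick or G-T pairs. Each was assigned to the end with the fewest G-T pairs, and openings 1 base away from an opening with 100 or more times its counts were set aside; both of these steps were chosen after the values were seen. In the next 3 lines the capitals mark the 7 bases that pair with the acceptor strand, for the most abundant 5' read of a tRNA with many, fewer and few 5' reads.
Val-AAC/CAC, tRF-31-79MP9P9NH57SD: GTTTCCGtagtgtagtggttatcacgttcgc
Gly-CCC, tRF-27-Q1Q89P9L842: GCGCCGCtggtgtagtggtatcatgca
Pro, 5' read of 28 nt: GGCTCGTtggtctaggggtatgattctc
Val-AAC/CAC had 54372802 counts at the 5' end and 1384 at the complete 3' end, 39287 for each 3' read. Gly-CCC had 50559912 against 3330, 15183 for each. Proline had 22664 against 2883, or 7.86 for each, although its complete 3' end was nearly as often read as that of Gly-CCC.

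Between these stood Gly-GCC (1622 for each 3' read), Lys-CTT (1602), Val-TAC (238), the second alanine end (226), Ser-GCT (134), leucine (64.2), Ser-TGA (19.9) and the first alanine end (9.97). At the Arg-TCT end the 3' reads were the more frequent, with 744 counts against 28. For tryptophan no 5' count is given, since the leading match (110 of 257 counts) paired only with 3 G-T pairs. The counts at the 13 complete 3' ends ran from 178 to 3330. With G-T pairs allowed freely and no opening set aside, Arg-TCT had 11023 5' counts and the first alanine end 125256. The order at these ends therefore depends on the assignment. The values for each 3' read count only reads that keep the whole CCA, and the order depends on that choice as well. With shortened reads included, the Val-TAC end held 6363 counts in place of 591. The second alanine end held 805 in place of 517. Their 5' counts were 140840 and 116906, so Val-TAC would then stand below the second alanine end. The proline end held 7340 counts in place of 2883.

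**Figure D3:**
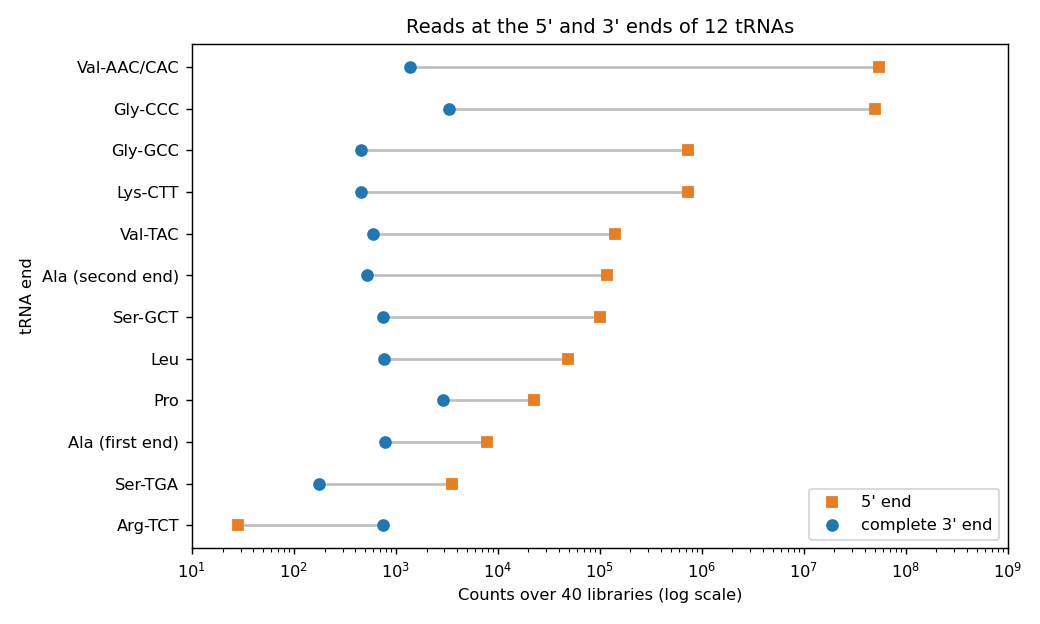
Counts over 40 libraries (log scale, horizontal axis) of reads at the 5' end and at the complete 3' end of 12 cytosolic tRNA ends (vertical axis; tryptophan is left out). The 3' counts lie between 178 and 3330, while the 5' counts run from 28 for Arg-TCT to 54372802 for Val-AAC/CAC.

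Across months, the summed level of the 29 reads at cytosolic ends was lowest at month 6 and highest at month 15. At month 0 it ran from 24.9 to 305 CPM with a median of 49.5 (mean 86.5 ± 91.5, SD, n = 8). The means were 70.5 ± 45.6 at month 3, 47.3 ± 21.6 at month 6 and 61.7 ± 21.9 at month 9. At month 15 it ran from 57.8 to 323 CPM with a median of 153 (mean 170 ± 102), and 6 of 8 animals were above their own month 0. PA8872 was high at month 0 (305 CPM, next highest 106) and PA8003, PA8914, PA8873 and PA8001 were high at month 15, so the months overlapped. PA8003 at month 15 is the library with the lowest scaling factor, and as a plain share of its counts the 43 members held 0.0193% there, against 0.0391% in PA8873 and 0.00842% in PA8912. Without scaling, as CPM of the plain library total, the means were 98.4 at month 0 and 167 at month 15.

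The total that chose the members includes the month 15 libraries, so a read could enter through a high level there, and these sums are no support for a difference. The sum of the mitochondrial ends was 17.3 ± 16.9 CPM at month 0, 22.4 ± 15.9 at month 3, 7.27 ± 4.62 at month 6, 13.4 ± 11.7 at month 9 and 39.4 ± 27.8 at month 15, and 7 of 8 animals were higher at month 15 than at month 0. As CPM of the plain library total the means were 21.6 and 41.6, and 5 of 8 animals were higher. The 6 reads whose CCA is not an end stood at 27.9 ± 22.5 CPM at month 0 and 24.7 ± 16.4 at month 15, with 5 of 8 animals higher.

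**Figure D4:**
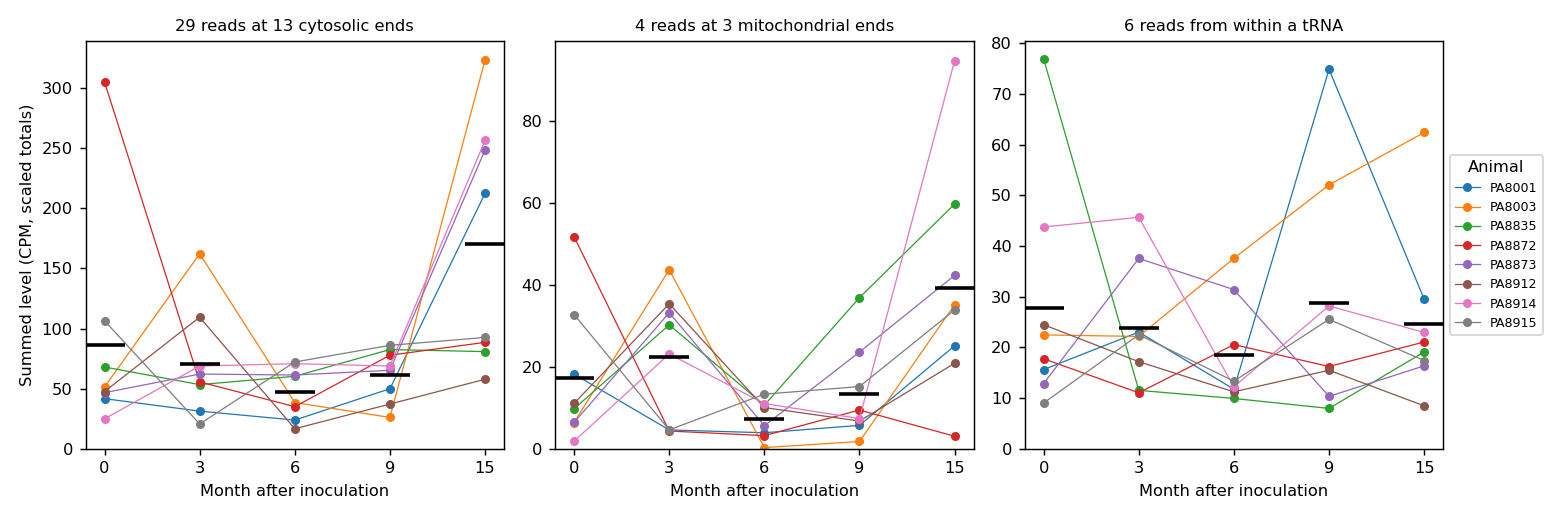
Summed level in CPM (vertical axis) by month after inoculation (horizontal axis) for the reads at cytosolic ends, at mitochondrial ends and from within a tRNA. Each line is 1 of 8 animals and each bar the monthly mean; the mean at cytosolic ends goes from 86.5 at month 0 to 170 at month 15.

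Of the 43 members, 20 passed the filter on low counts and were tested with edgeR among 2447 fragments; 15 of these are at cytosolic ends, 2 at mitochondrial ends and 3 within a tRNA. The other 23 members were too rare to test. Of the 20, 14 would also have passed on months 0 to 9 alone and 6 passed only with the month 15 libraries, so counts among the 20 describe the tested members and are no support for a difference. At months 3, 6 and 9 against month 0, 0 of 20 members were called, as were 0% of all 2447 fragments in each of these comparisons. At an unadjusted p under 0.05 the counts were 0, 4 and 1 of 20, and DESeq2 and limma-voom called 0 at each of these months. The median log2 difference of the 15 tested reads at cytosolic ends was -0.01 at month 3, -0.76 at month 6 and -0.50 at month 9, against 0.10, 0.01 and 0.06 over all fragments tested. The Asp-GTC reads had medians of 0.51, 0.42 and 0.64 in the same comparisons, which share the month 0 libraries.

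At month 15 against month 0, 1 of 20 members was called, beside 2.37% of all fragments tested (2.21% higher and 0.163% lower). Among the 14 members that passed the filter without month 15, 0 were called. The called read was the 16 nt proline read tRF-16-K8E0KRB, which lay between 0 and 4.07 CPM at month 0 (median 0.92) and between 1.21 and 14.0 CPM at month 15 (median 4.64). It passed the filter only through the month 15 libraries, where it is high, so its call is no independent support for a difference. It was at 0 in 3 of 8 libraries at month 0 and in none at month 15, and 6 of 8 animals were higher, with overlapping ranges. PA8001 at month 0 is among the 3, and a count of 3 there is worth 7.82 CPM. That is above the 7.26 CPM of this animal at month 15, so its rise lies within this limit. The proline read rose by 2.16 ± 0.61 on the log2 scale (edgeR, adjusted p = 0.0496). Here and for the log2 values below, ± is the standard error derived from the test, not an SD over animals. The call was lost under 12 of 16 alternative settings, and over all 16 the adjusted p ran from 0.00514 to 0.282.

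All 15 tested reads at cytosolic ends had a positive log2 difference at month 15 against month 0, with a median of 0.86, against 0.05 over all fragments tested and 1.45 over 34 tested Asp-GTC reads. Reads of the same tRNAs without the final 1 to 3 bases had a median of 0.66, and 10 of 14 were positive. Of these 14 reads 0 were called, and of the 34 Asp-GTC reads 17 were called higher. Among the members not called, the first alanine read tRF-18-8R6Q46D2 had a log2 difference of 1.61 ± 0.61 (adjusted p = 0.148) and mitochondrial cysteine tRF-16-WVMKNRB one of 1.29 ± 0.77 (adjusted p = 0.328). The leading Gly-CCC read tRF-18-YRRHQFD2 had 0.49 ± 0.56 (adjusted p = 0.605). The Val-TAC read without the triplet, tRF-36-LPD3387SFRJ4O1B, had a negative one of -0.70 ± 0.51 (adjusted p = 0.421).

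Against the mean of months 3, 6 and 9, month 15 was higher for 13 of 20 members and lower for 0, beside 39.7% of all fragments tested called in either direction (23.7% higher and 16% lower). In the same comparison 21 of 34 tested Asp-GTC reads were called higher and 0 lower. Of 14 tested reads of the same tRNAs without the final 1 to 3 bases, 9 were called higher and 1 lower. This comparison shares the month 15 libraries with the one before. Of the 13, 11 are at cytosolic ends, where 15 were tested: all 4 tested proline reads, 2 of 4 Gly-CCC reads, both tested Val-AAC/CAC reads, the leading read of each alanine end and the Ser-GCT read. The others were mitochondrial cysteine and the mitochondrial methionine 5' piece. Among the 14 members that passed the filter without month 15, 9 were called. With PA8001 and PA8003 left out at month 15, 1 member was called, tRF-22-WB08Q2B52 (log2 1.46, adjusted p = 0.0394); over all fragments 151 were then called higher and 44 lower, against 580 higher in the full fit.

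The alanine read tRF-18-8R6Q46D2 had the smallest adjusted p of the members. Its level was between 0 and 9.12 CPM at month 3 (median 2.48), between 0.71 and 5.93 at month 6 (median 2.50), between 0.68 and 4.34 at month 9 (median 1.79), and between 1.91 and 36.9 at month 15 (median 10.4). PA8003 was the highest library at month 15, and 6 of 8 animals were above their own mean of months 3, 6 and 9. It rose by 1.97 ± 0.45 on the log2 scale (edgeR, adjusted p = 0.00163), and the adjusted p over the alternative settings ran from 0.000166 to 0.0855. The read of the second alanine end, tRF-18-8R6546D2, rose by 1.88 ± 0.54 (edgeR, adjusted p = 0.00731; 7 of 8 animals), but it passed the filter only through month 15.

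The Ser-GCT and Val-AAC/CAC reads of 22 nt were higher in 8 of 8 animals. Ser-GCT tRF-22-WB8689SV2 had medians of 1.47, 1.18 and 2.22 CPM at months 3, 6 and 9, and ran from 2.73 to 15.4 CPM with a median of 7.26 at month 15. It rose by 1.76 ± 0.43 on the log2 scale (edgeR, adjusted p = 0.00242). Val-AAC/CAC tRF-22-WB08Q2B52 had medians of 3.42, 2.39 and 2.27 CPM and ran from 2.42 to 16.6 CPM with a median of 7.42 at month 15. It rose by 1.57 ± 0.39 (edgeR, adjusted p = 0.00266). The 17 nt read of the same end, tRF-17-08Q2B52, rose by 1.99 ± 0.52 (edgeR, adjusted p = 0.00402; 7 of 8 animals), and it too passed the filter only through month 15. Individual animals at month 15 overlapped with the earlier months for each of these reads.

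The 4 proline reads differ only in where they begin. The 22 nt read tRF-22-8B8SOUPR2 had medians of 7.57, 3.55 and 5.81 CPM at months 3, 6 and 9 and ran from 1.09 to 33.7 CPM with a median of 14.1 at month 15. It rose by 1.38 ± 0.38 on the log2 scale (edgeR, adjusted p = 0.00598; 7 of 8 animals). The 16, 17 and 18 nt reads rose by 1.50, 1.27 and 1.25, with adjusted p-values of 0.00837, 0.0202 and 0.0395 by edgeR, each in 6 of 8 animals. The 16 nt read passed the filter only through month 15. The calls of the 16, 17 and 18 nt reads were lost under 1, 5 and 9 of 16 alternatives, with adjusted p-values of up to 0.126, 0.22 and 0.452. At the Gly-CCC end the 18 nt read tRF-18-YRRHQFD2 rose by 1.31 ± 0.41 (edgeR, adjusted p = 0.0138) and the 17 nt read tRF-17-8S68L52 by 1.44 ± 0.52 (edgeR, adjusted p = 0.027), calls that were lost under 2 and 6 of 16 alternatives. The 16 and 22 nt Gly-CCC reads and the Val-TAC read of 22 nt were not called, nor was the 38 nt leucine read. Whether reads of one end differ from each other in their change was not tested.

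**Figure D5:**
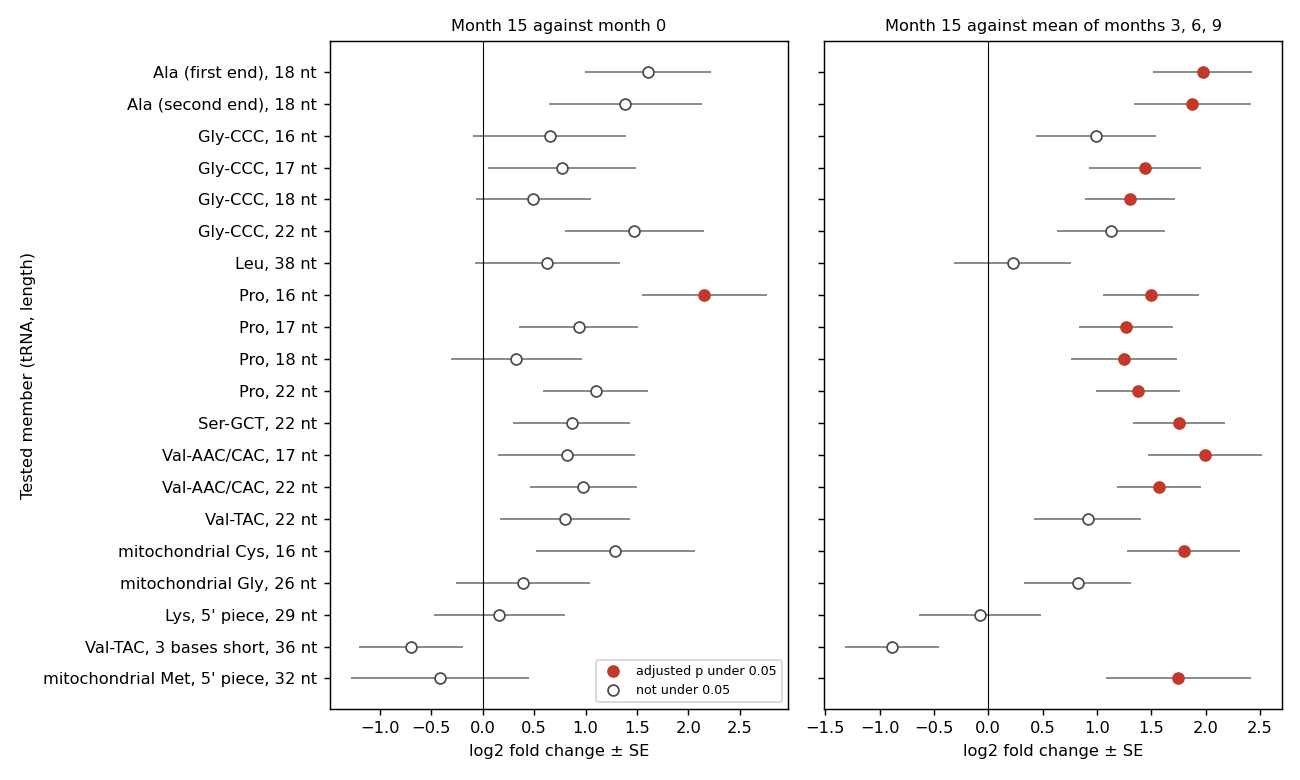
log2 fold change with its standard error (horizontal axes) of the 20 tested members (vertical axis) at month 15 against month 0 and against the mean of months 3, 6 and 9. Filled points are those with an adjusted p under 0.05 by edgeR: 1 against month 0 and 13 against the earlier months.

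The joint test of all months called 5 members: both tested Val-AAC/CAC reads, the first alanine read, the Ser-GCT read and the 16 nt proline read, beside 16.2% of all fragments tested. Their adjusted p-values by edgeR ran from 0.0286 (tRF-18-8R6Q46D2) to 0.0447 (tRF-16-K8E0KRB and tRF-17-08Q2B52). Both reads with the value of 0.0447 passed the filter only through month 15, so their calls are no independent support for a difference. With PA8001 and PA8003 left out at month 15 the count was 0, and leaving out PA8003, PA8873 or PA8914 also gave 0.

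Among the mitochondrial members, the cysteine read of 16 nt, tRF-16-WVMKNRB, was the second most abundant member of all with 1600 counts. Its end was read in 1 fragment only, so no longer read carried it, and 1 further count lacked the final A. At 16 nt, the shortest length in the table, this read could not be seen without its final bases, so the lack of trimmed counts is no trait of this read. At month 0 it ran from 0.70 to 27.0 CPM (median 6.42) and at month 15 from 1.15 to 88.2 CPM (median 23.5), highest in PA8914. Against the mean of months 3, 6 and 9 it rose by 1.80 ± 0.52 on the log2 scale (edgeR, adjusted p = 0.00744; 7 of 8 animals). The glycine read of 26 nt, tRF-26-ZDDQ8BB2S1B, ran from 0 to 16.1 CPM at month 0 and from 1.92 to 17.8 CPM at month 15 and had a log2 difference of 0.82 ± 0.49 from the earlier months (adjusted p = 0.18). The phenylalanine read tRF-16-LRJO01B, with 100 counts, was too rare to test.

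The 4 reads almost confined to 2 libraries are a 71 nt mitochondrial methionine tRNA and 3 mitochondrial glutamate pieces of 33 to 41 nt. The methionine read had 504 counts in PA8001 at month 15, 153 in PA8914 at month 15, and 1 in PA8001 at month 0. The glutamate read of 41 nt had 240 and 11 counts, that of 33 nt 63 and 56, and that of 35 nt 58 and 56, all in the same 2 libraries. None of the 4 passed the filter. The opening of the 71 nt read differs from the mitochondrial methionine piece shown above at 1 of 32 bases, at position 17 from the 5' end. Reads with the letter of the 71 nt read held 2480 counts, of which 2164 were in PA8001 and 281 in PA8914 at month 15 and 35 elsewhere, while reads with the other letter held 24899 counts over 40 libraries. Where these reads came from was not tested, and their sequences are not shown. These 4 reads enter no sum of cytosolic or other mitochondrial ends. At month 15 the plain share of all 43 members was 0.0740% in PA8001 and 0.0463% in PA8914.

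Of the reads whose CCA lies within a tRNA, the 36 nt Val-TAC read tRF-36-LPD3387SFRJ4O1B had a level between 2.01 and 35.9 CPM at month 0 (median 13.6) and between 1.70 and 13.1 CPM at month 15 (median 8.20). It was lower at month 15 than at month 0 in 6 of 8 animals. Its log2 difference from the mean of months 3, 6 and 9 was -0.88 ± 0.43 (adjusted p = 0.0999), opposite in sign to the 15 tested reads at cytosolic ends, though the difference between them was not tested. The mitochondrial methionine piece tRF-32-1OR6QO004MR12 had a median of 2.31 CPM at month 0 and 2.93 at month 15, and a highest level of 60.7 CPM in PA8835 at month 0 and 50.5 CPM in PA8003 at month 15. It rose against months 3, 6 and 9 by 1.75 ± 0.67 (edgeR, adjusted p = 0.036; 6 of 8 animals), having passed the filter only through month 15; with PA8001 and PA8003 left out at month 15 the log2 difference was 0.28 with an adjusted p of 0.811. The initiator methionine pieces, too rare to test, had a summed mean of 0.89 CPM at month 0 and 5.89 CPM at month 15, higher in 8 of 8 animals, a description since the total that chose them includes month 15.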

How the data were processed

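Small RNA of 40 serum libraries (8 animals at 5 months) was analysed. Per the labels' protocols, RNA was extracted from 0.5 mL of serum, adapters were ligated to both ends and molecular identifiers were added at cDNA synthesis. The authors deposited raw counts per distinct read and library, and a second table with the read sequences. R 4.5.0, edgeR and limma are named in the submitters' processing notes with no role. The aligner, the tRNA reference and whether counts were collapsed by identifier are not stated by the labels or files used here, so limits from counts cover counting error only. Of 60201 lines, 1614 without an ID (0.0805% of counts) each held an unread base and were left out.

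The test was edgeR's (version 4.0.16, R 4.3.3): filterByExpr with a minimum count of 10, TMM scaling, a robust quasi-likelihood fit with animal as block and month as factor, two-sided, Benjamini-Hochberg over 2447 fragments, threshold 0.05. The procedure was run on simulated counts with the same spread for every fragment and no animal effect. Such counts cannot show how it performs with the animal effect of these data. The same animals were drawn at every month: deviations from month means correlated at 0.191 on average between libraries of one animal and at -0.0254 between animals. DESeq2 1.42.0 and limma 3.58.1 served as alternatives. The members and lists were chosen with earlier results of these data known, and the classes of ends, including the 2-library class (90% or more of a read's counts in 2 libraries), after their values were seen. Named fragments are the most abundant of each end with at least 2 members or 500 counts, and every member called; others are named where a group is described. The p-values measure how changes between months vary over the animals and libraries, with each animal's own level taken out as a block.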

Additional observations from a re-analysis of the deposited data

Results flagged for a closer look

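In 15 sets of 8 libraries (the summed levels of the cytosolic, mitochondrial and inner reads at each month), 2 held a library whose gap to the next, as a share of the whole range, was above Dixon's critical value; chance gives about 1 in 20. At cytosolic ends, PA8872 at month 0 stood at 305.1 CPM, with 106.4 CPM in the next highest animal. Among the reads within a tRNA, PA8003 at month 15 stood at 62.43 CPM, with 29.52 CPM in the next.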

How the results depend on the processing

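At months 3 and 6 against month 0 the count of members called was 0 under every alternative run; at month 9 it was 1 without a filter on low counts and 0 otherwise. At month 15 against month 0 the single call was lost without a filter, where 4 other members were called, and the count was 0 with library totals as the only scaling, 0 without the animal block, 0 with PA8001 and PA8003 left out at month 15, 0 without the month 0 library of PA8001, and 0 with library totals counted over tested fragments only, a setting chosen after seeing the data; leaving out 1 animal gave 0 to 1. Against the mean of months 3, 6 and 9 the 13 calls became 27 without a filter (26 of them higher; 10 of the 13 were kept) and 1 with those 2 libraries left out, 12 without the block, and 9 to 15 with 1 animal left out. For any month the 5 calls were 3 with library totals, 8 with DESeq2, 16 without a filter (3 of the 5 kept), 0 without those 2 month 15 libraries, 5 without the block (3 of them the same members), and 0 to 6 with 1 animal left out. Without a filter 43 members were tested, against 20. The counts over all 2447 fragments moved as well. In the full fit 54 were called higher and 4 lower at month 15 against month 0. These became 5 and 0 with library totals and 123 and 27 with DESeq2. Against the mean of months 3, 6 and 9, 532 were called higher and 181 lower with library totals, and 654 and 456 with DESeq2. No such count is given without a filter or for any month under the alternatives. Whether the members moved more than all fragments cannot be told for those. Directions at month 15 against month 0 reversed for uncalled members only: tRF-18-HR6HFRD2 to -0.25 without the 2 month 15 libraries and -0.04 without PA8001, tRF-32-1OR6QO004MR12 to 0.75 without PA8835 and 0.26 without PA8872, and tRF-26-ZDDQ8BB2S1B to -0.08 without PA8835. With 1 animal left out these differences ran from -0.04 to 0.88, from -1.61 to 0.75 and from -0.08 to 1.14. The causes were not tested. Joining ends that differ at 1 base gave 21 groups in place of 22. The shallowest library, PA8001 at month 0, limits the month 0 levels: a count of 3 there is worth 7.82 CPM.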
